A study of Saccharomyces cerevisiae with 4 samples.

Results

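Transcript levels of 10 genes that drive or restrain entry into the budding yeast cell cycle were followed in 2 deletion strains of SAGA, the histone-acetylating coactivator that works at promoters. The genes were the G1 cyclin genes CLN1, CLN2 and CLN3, the Pho85 cyclin genes PCL1, PCL2 and PCL9, and the regulator genes SWI4, SWI6, MBP1 and WHI5. They were taken by gene symbol, and each was read by 1 probe set, giving 10 of the 5667 genes and unnamed probe sets measured. Affymetrix arrays were hybridised with RNA of an ada1 deletion strain (1 array), of a gcn5 deletion strain (1 array) and of wild type (2 arrays). All were BY4742, a haploid laboratory strain of mating type alpha. Each deletion was a KanMX gene replacement, and all cells grew in rich glucose medium to exponential phase. The ada1 deletion removes HFI1 (alias ADA1), which holds the complex together, and the gcn5 deletion removes its acetyltransferase. Each deletion strain is represented by a single sample, and the labels do not say if the wild-type pair came from 2 cultures, so the p-values reflect only how these 2 samples vary, which may be technical.

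In late G1, Cln3 bound to the kinase Cdc28 relieves inhibition by Whi5 of SBF, a transcription factor made of Swi4 and Swi6. SBF, together with the related factor MBF (Mbp1 and Swi6), then turns on CLN1, CLN2, PCL1, PCL2 and the genes of budding and DNA synthesis, and the kinase complexes of Cln1 and Cln2 commit the cell to division. PCL9 is read earlier, at the end of mitosis, under the factor Swi5. These transcripts therefore come and go within each cycle, and in RNA from whole cultures fewer cells at the right stage and less RNA per cell cannot be told apart.

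The deleted genes matched the labels. HFI1 gave a signal of 6.70 on the ada1 deletion array and 246 to 372 on the others, and GCN5 gave 3.28 on the gcn5 deletion array and 309 to 385 on the others. The 4 genes of alpha cells gave 3645 to 11518 in wild type, and all 4 were lower in both deletion strains. Their median log2 difference was -3.17 in ada1 and -3.49 in gcn5 deletion cells, against 0.08 and 0.15 over all genes tested. All but MF(ALPHA)1 in gcn5 deletion cells (-0.95 ± 0.45, SE) passed the test. The 6 genes of a cells gave at most 111 on any array and were not tested. Values are MAS5 signals on a linear scale, and 165.7, below which 20 percent of probe sets lay on average, was taken as the background level. The arrays differed in range. The ada1 deletion array and wild-type replicate 1 reached signals of 21989 and 23746, against 12244 and 11804 for the gcn5 deletion array and wild-type replicate 2, and the labels name no batch behind this. The median absolute log2 difference between the wild-type arrays was 0.26, with a 95th percentile of 0.73.

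CLN1 and CLN2 encode the paired late-G1 cyclins. CLN1 gave 335 in ada1 deletion cells and 499 in gcn5 deletion cells, against 616 and 763 in wild type. CLN2 gave 358 in ada1 deletion cells and 563 in gcn5 deletion cells, against 692 and 684 in wild type. Both genes had the same order of strains, with the ada1 deletion array lowest, the gcn5 deletion array between and both wild-type arrays on top, and no deletion array reached the wild-type values. CLN3, the upstream activator of the G1 programme, gave 517 in ada1 deletion cells and 281 in gcn5 deletion cells, against 593 and 320.4 in wild type. Its ada1 deletion value lay between the wild-type arrays, and its gcn5 deletion value lay below both. For CLN3 the wild-type arrays themselves stood 0.89 apart on the log2 scale.

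PCL1 and PCL2 encode Pho85 cyclins of late G1, which act in budding and polarised growth. PCL1 gave 191 in ada1 deletion cells and 544 in gcn5 deletion cells, against 208 and 352 in wild type. The deletion strains thus stood on opposite sides of wild type, the ada1 deletion array being below both wild-type arrays and the gcn5 deletion array above both. The ada1 deletion array differed from replicate 1 by only -0.12 on the log2 scale, and neither strain's difference from wild type passed the test. Over all tested genes 29.9 percent lay below both wild-type arrays in ada1 and 53.1 percent above both in gcn5 deletion cells. PCL2 gave 109.7 in ada1 deletion cells and 161 in gcn5 deletion cells, against 192 and 237 in wild type. Both deletion arrays were thus under the background level and both wild-type arrays over it. PCL9, the Pho85 cyclin of the M/G1 boundary, gave 266 in ada1 deletion cells and 346 in gcn5 deletion cells, against 432 and 510.2 in wild type. Its order of strains was that of CLN1 and CLN2.

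Among the genes of the G1/S transcription factors, SWI6 and MBP1 read higher on both deletion arrays, without passing the test. SWI6, the subunit shared by SBF and MBF, gave 293 in ada1 deletion cells and 334 in gcn5 deletion cells, against 195 and 273 in wild type. MBP1, the DNA-binding subunit of MBF, gave 244 in ada1 deletion cells and 314 in gcn5 deletion cells, against 155 and 227 in wild type. Its signal on wild-type replicate 1 lay under the background level. For both genes each deletion array lay above both wild-type arrays, although the ada1 deletion array did so by only 0.10 for SWI6 and 0.11 for MBP1 on the log2 scale against replicate 2. Such a position was common, holding for 41.5 percent of all tested genes in ada1 and 53.1 percent in gcn5 deletion cells. SWI4, the DNA-binding subunit of SBF, gave 117 in ada1 deletion cells and 173 in gcn5 deletion cells, against 71.4 and 142 in wild type. Only the gcn5 deletion array was over the background level, at least 1.05-fold above wild type, and SWI4 was not tested. WHI5, the inhibitor of SBF, gave 8.15 in ada1 deletion cells and 41.7 in gcn5 deletion cells, against 10.3 and 37.6 in wild type, all under the background level, so that no fold is given.

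**Figure D1:**
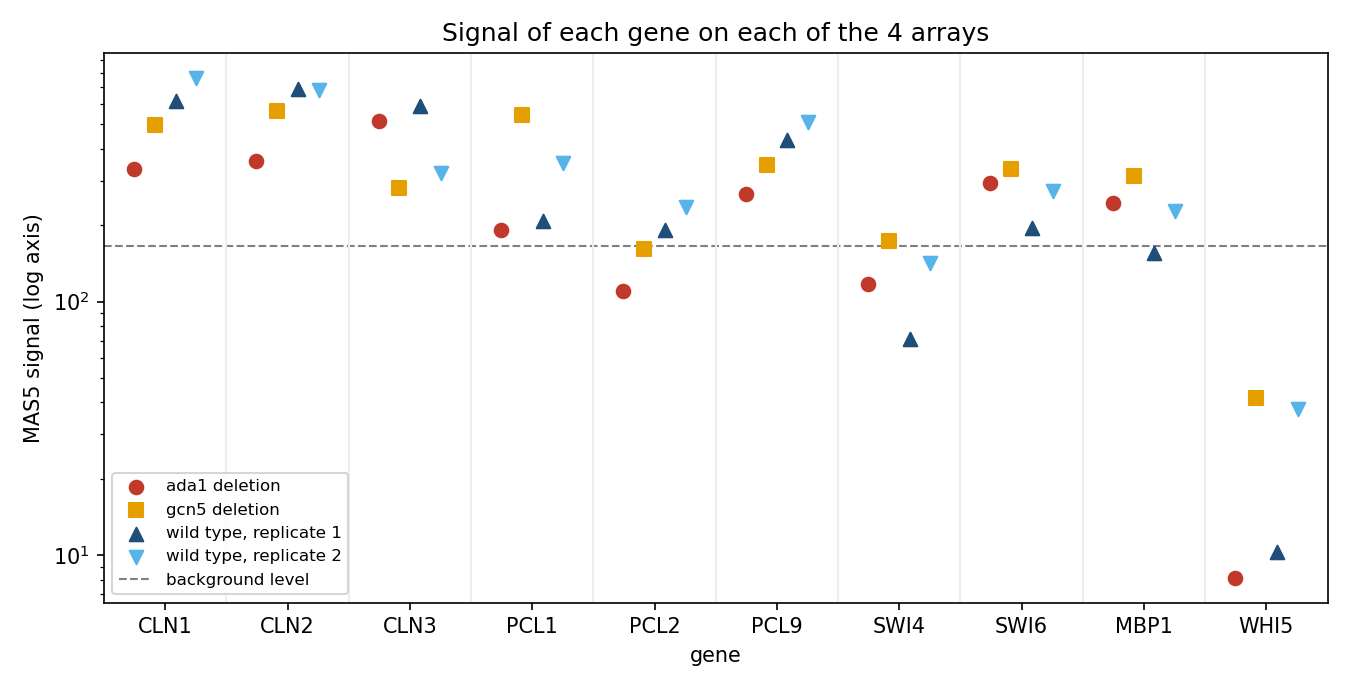
MAS5 signal (log axis) of the 10 genes on each array: ada1 deletion (circles), gcn5 deletion (squares) and wild-type replicates 1 and 2 (triangles); the dashed line is the background level of 165.7. CLN1, CLN2 and PCL9 show the ada1 deletion array lowest and the gcn5 deletion array next, and PCL2 has both deletion arrays under the line. SWI6 and MBP1 show both deletion arrays above both wild-type arrays. Of all tested genes 41.5 percent did so on the ada1 deletion array and 53.1 percent on the gcn5 deletion array.

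The ada1 deletion array thus held the lowest signal for CLN1, CLN2, PCL1 and PCL9, and the highest for 0 of the 10 genes. The gcn5 deletion array held the highest for PCL1, SWI4, SWI6 and MBP1 and the lowest for CLN3. Wild-type replicate 1 was lowest for SWI6 and MBP1. Signals under the background level have no order, so no lowest array is given for PCL2 and SWI4, and neither end for WHI5.

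Setting ada1 deletion cells against wild type asked whether G1 cyclin transcripts depend on this subunit. CLN1 and PCL2 fell, and 0 of the 8 members tested rose. A gene was tested if its mean log2 signal reached the background level. PCL2 did so narrowly, at percentile 20.2, and only through its wild-type signals. Its fall is therefore not independent of that filter. CLN1 was lower by a log2 difference of -1.03 ± 0.36 (SE), or 0.489 times wild type (adjusted p = 0.0448, limma, adjusted over all 4541 genes tested). PCL2 was lower by a fitted -0.96 ± 0.33 (adjusted p = 0.0470, limma), and with its deletion signal under the background level it was at least 1.29-fold lower. CLN2 had a difference of similar size, -0.94 ± 0.35, that missed the threshold (adjusted p = 0.0681, limma). PCL9 followed with -0.82 ± 0.40 (adjusted p = 0.271, limma), and PCL1 with -0.50 ± 0.40 (adjusted p = 0.637). The differences of MBP1 (0.38 ± 0.37), SWI6 (0.34 ± 0.39) and CLN3 (0.25 ± 0.40) did not pass the test, with adjusted p of 0.741, 0.806 and 0.904 (limma).

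Of the 10 members, 8 passed the filter on dim probe sets, 2 of these 8 fell and 4 had an unadjusted p under 0.05, all of them lower. Over all tested genes 5.7 percent fell and 2.73 percent rose. The median difference of the 8 members was -0.66, against 0.08 over all genes tested. The ada1 deletion array lay below both wild-type arrays for 5 of the 8 and above both for 2, while over all tested genes these shares were 29.9 and 41.5 percent. A difference of 2-fold or more from the wild-type mean was reached downwards by 1 of the 8, CLN1 (4.62 percent of all tested genes), and upwards by 0 (1.65 percent), and by 2 and 0 of the 8 downwards against replicate 2 and replicate 1 alone. The calls depended on the settings of the fit. CLN1 lost its call with the filter at the 40th percentile, with a single variance prior and with low signals raised to the background level (adjusted p = 0.0603, 0.0612 and 0.177, limma), over a range from 6.03e-05 to 0.177, while PCL2 lost its call with no filter, with the single prior and with raised signals (0.142, 0.102 and 0.269, over a range from 0.000955 to 0.269), the raised signals reducing its difference to -0.36. After quantile normalization both kept their calls, and CLN2 and PCL9 also passed, with log2 differences of -0.95 ± 0.20 and -0.86 ± 0.19 (adjusted p = 0.00853 and 0.0139, limma).

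Setting gcn5 deletion cells against wild type put the same question to the acetyltransferase. PCL1 had the largest difference among the 8 tested members, 2.01 times wild type or 1.01 ± 0.40 (SE) on the log2 scale, which did not pass the test (adjusted p = 0.147, limma). MBP1 stood at 0.74 ± 0.37 (adjusted p = 0.327) and SWI6 at 0.53 ± 0.39 (adjusted p = 0.561), again without passing (limma). CLN3 stood at -0.63 ± 0.40 (adjusted p = 0.468, limma), or 0.644 times wild type. The late-G1 cyclin genes had small negative differences of -0.46 ± 0.36 for CLN1 and -0.29 ± 0.35 for CLN2. That of PCL9 was -0.44 ± 0.40. PCL2 had a fitted -0.41 ± 0.33, and with its gcn5 deletion signal under the background level only a bound of at least 1.29-fold lower can be given. Adjusted p for these 4 genes ran from 0.587 to 0.763 (limma).

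No member was called in gcn5 deletion cells (limma), and 2 of the 8 tested had an unadjusted p under 0.05, PCL1 and MBP1, both higher. Over all tested genes 2.11 percent rose and 2.53 percent fell. The median difference of the 8 members was -0.35, against 0.15 over all genes. Of the 8 differences, 5 were negative and 3 positive. The sign of the median depended on the filter. With no filter, which adds the dim SWI4 and WHI5, it was 0.12 over the 10 members, against 0.19 over all genes. The gcn5 deletion array lay below both wild-type arrays for 5 of the 8 (24.9 percent of all tested genes) and above both for 3 (53.1 percent of all tested genes). PCL1 was the 1 member higher by 2-fold or more (1.96 percent of all tested genes), and 0 were lower by as much (1.92 percent). Scaling the arrays to a common median moved the median of all genes in this comparison to -0.01. It also narrowed the SE, and PCL1 (0.84 ± 0.23, adjusted p = 0.00550), CLN3 (-0.80 ± 0.23, adjusted p = 0.00676) and CLN1 (-0.63 ± 0.22, adjusted p = 0.0405) passed under that setting (limma), while quantile normalization left 0 of the 8 called.

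**Figure D2:**
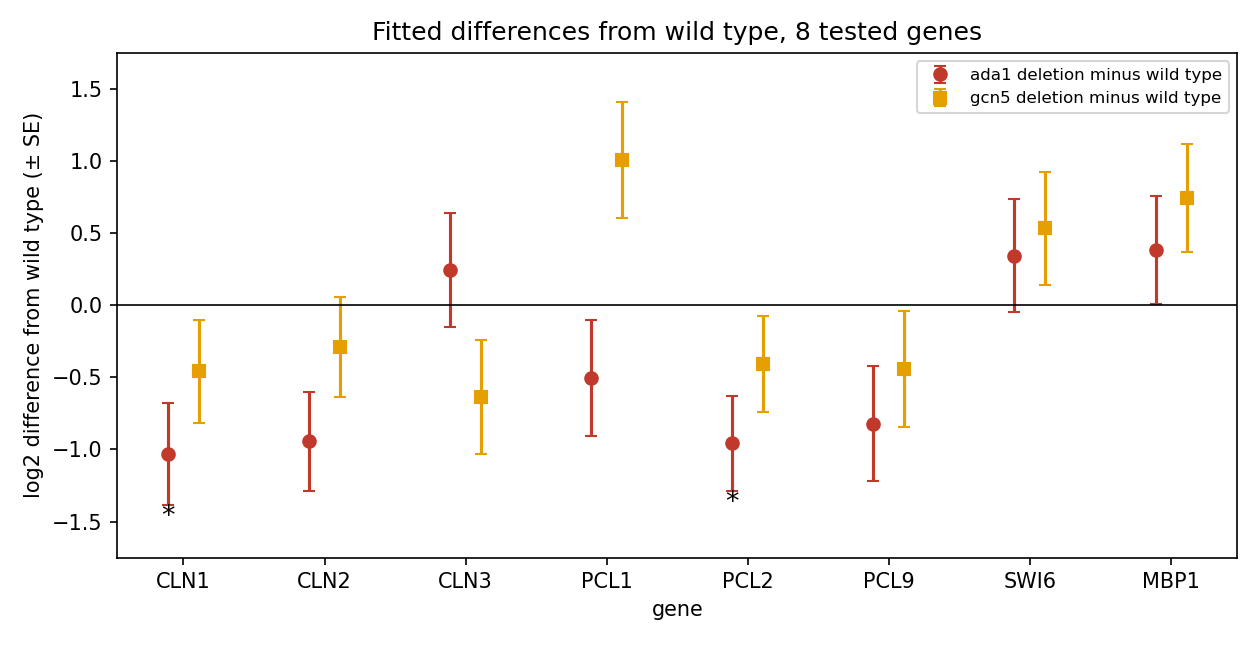
Fitted log2 differences from wild type (± SE) of the 8 tested genes, ada1 deletion (circles) and gcn5 deletion (squares); an asterisk marks an adjusted p under 0.05 (limma). CLN1 and PCL2 carry asterisks in ada1 deletion cells, and PCL1 lies at -0.50 in ada1 and 1.01 in gcn5 deletion cells.

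Both comparisons use the same 2 wild-type arrays, so the strains were also set against each other directly. PCL1 was lower in ada1 deletion cells than in gcn5 deletion cells, at 0.351 times its signal, a log2 difference of -1.51 ± 0.46 (SE, adjusted p = 0.0215, limma). It was the 1 member of 8 called, with 1 at an unadjusted p under 0.05, where 4.25 percent of all tested genes were called lower and 2 percent higher. CLN3 had the opposite sign, 0.88 ± 0.46 (adjusted p = 0.351). The other 6 tested members had negative differences between -0.65 for CLN2 and -0.19 for SWI6, with adjusted p of 0.474 or more (limma), so for CLN1, CLN2 and PCL9 a difference between the strains was not shown. For PCL2 both deletion signals lay under the background level and have no order. The call of PCL1 ended with low signals raised to the background level (adjusted p = 0.0943, over a range from 2.63e-05 to 0.0943).

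The members were then read within the array pairs of like signal range, the ada1 deletion array with wild-type replicate 1 and the gcn5 deletion array with replicate 2. These values have no test, and the pairing was chosen after the data had been seen. CLN1 differed by -0.88 in the ada1 pair and -0.61 in the gcn5 pair, CLN2 by -0.95 and -0.28, and PCL9 by -0.70 and -0.56 on the log2 scale. PCL2 differed by -0.81 and -0.56, with both deletion signals under the background level. These 4 genes were lower in each deletion array against each wild-type array. CLN3 differed by -0.20 in the ada1 pair and -0.19 in the gcn5 pair, a contrast of the pairs of -0.01, so its split followed the array pairs: signals were 517 and 593 on one pair and 281 and 320.4 on the other. After quantile normalization the wild-type arrays still stood 1.11 apart for CLN3.

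For PCL1 the contrast of the pairs was -0.75, about the size of the difference between the wild-type arrays themselves, replicate 1 minus replicate 2 being -0.76. Its ada1 pair differed by -0.12 and its gcn5 pair by 0.63, and the part of the array pair in the difference between the strains was not tested. SWI6 and MBP1 were higher in each deletion array against each wild-type array, by 0.59 and 0.66 in the ada1 pair and by 0.29 and 0.47 in the gcn5 pair. The shares of all tested genes above both wild-type arrays were 41.5 percent in ada1 and 53.1 percent in gcn5 deletion cells. The size of the 0.66 for MBP1 is uncertain, since its signal on replicate 1 lay under the background level. SWI4 lay under the background level on 3 of the 4 arrays and WHI5 on all 4, so no differences within the pairs are given for them.

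**Figure D3:**
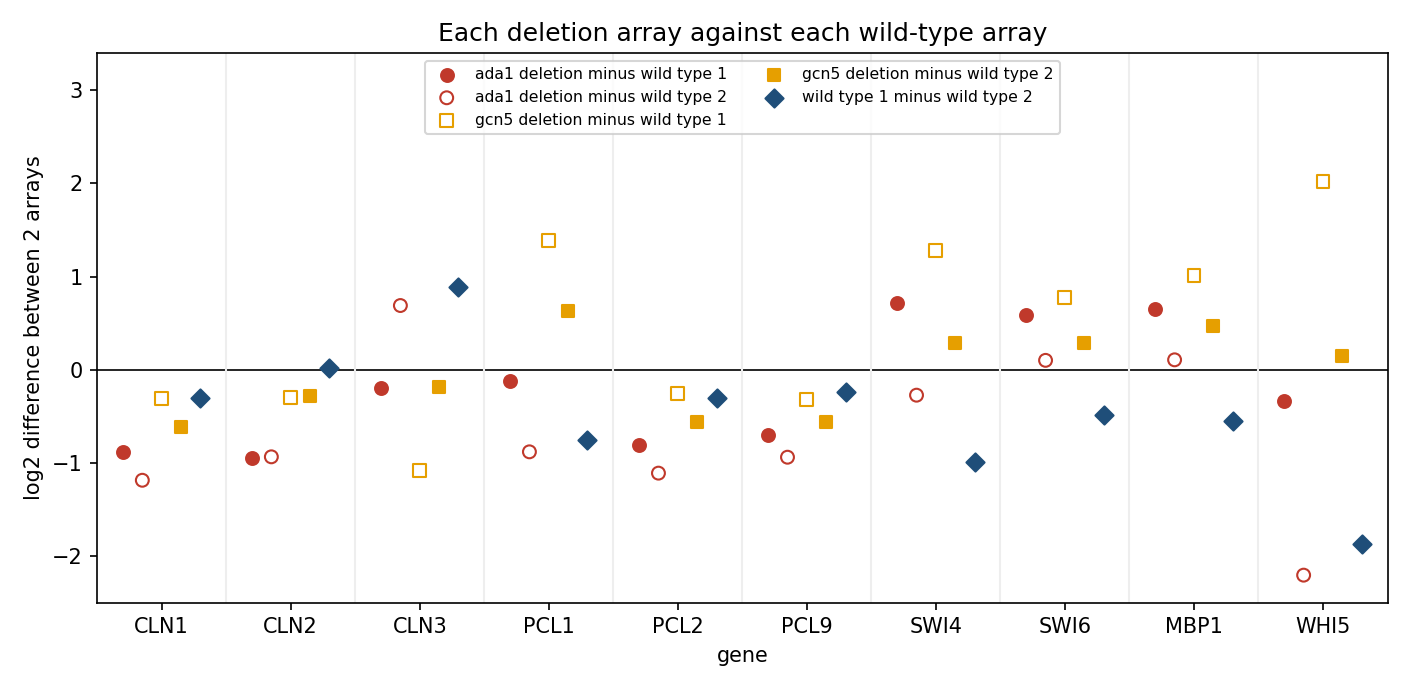
Log2 difference of each deletion array against each wild-type array and between the wild-type arrays, for the 10 genes; filled circles and squares are arrays of like signal range, open ones arrays of unlike range, and diamonds wild-type replicate 1 minus replicate 2. Differences between signals under the background level (SWI4 but for the gcn5 deletion array, and WHI5) have no order. For CLN1, CLN2, PCL2 and PCL9 all 4 circles and squares lie below 0, whereas for CLN3 the filled ones lie at -0.20 and -0.19 and the open ones at 0.69 and -1.08.

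Nearest patterns were sought for the called members, CLN1 and PCL2. Both were called for a fall in ada1 deletion cells on these same 4 arrays, which favours a likeness between them. Likeness was measured as the Euclidean distance between log2 signals centred on each gene's own mean. Among the tested genes with a name, PCL2 was the nearest to CLN1, at 0.0652, followed by YPL245W at 0.0962 and CSI2 at 0.118. The nearest to PCL2 was YPL245W at 0.0599, followed by CLN1 at 0.0652 and PAM18 at 0.122. These distances rest on 4 arrays, with both deletion signals of PCL2 under the background level, and describe them only.

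The counts of the gene lists stand beside these shares over all tested genes. In ada1 deletion cells 5.7 percent fell and 2.73 percent rose, and in gcn5 deletion cells 2.53 percent fell and 2.11 percent rose. Among genes that act on the G1 cyclin promoters or on SBF and MBF, 13 of the 14 listed were in the table and 10 were tested. In the ada1 deletion strain 4 of the 10 fell, 0 rose, and the median was -0.68. They included RME1, a factor that promotes CLN2 transcription, which gave 204 in ada1 deletion cells against 934 and 1058 in wild type (-2.28 ± 0.30, adjusted p = 5.20e-12, limma), while gcn5 deletion cells gave 1074. NRM1, the corepressor of MBF, gave 202 against 634 and 629.8 (-1.65 ± 0.38), and MCM1, whose product binds the early cell cycle boxes of SWI4 and CLN3, gave 228 against 478 and 687 (-1.33 ± 0.38). The other was ASH1, whose product is a repressor that acts in daughter cells (-1.87 ± 0.27). In the gcn5 deletion strain 0 of the 10 were called (limma), 1 had an unadjusted p under 0.05, and the median was 0.11.

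Of the 12 genes of the cyclin-dependent kinase, its inhibitors and the SCF ubiquitin ligase that degrades G1 cyclins, 1 fell in each deletion strain (over all tested genes 5.7 percent in ada1 and 2.53 percent in gcn5 deletion cells). This was FAR1, the inhibitor of Cln-Cdc28 during pheromone arrest, with 154 in ada1 and 54.8 in gcn5 deletion cells against 683 and 882 in wild type, and was at least 4.68-fold lower in each. Both deletion signals of FAR1 lay under the background level, so it passed the filter only through its wild-type signals. Its falls are therefore not independent of that filter. CDC28 itself gave 661 in ada1 and 535 in gcn5 deletion cells, against 657 and 810.4 in wild type. The list medians were -0.04 and 0.13.

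The Pho85 kinase, its inhibitor and its cyclins beside PCL1, PCL2 and PCL9 made a list of 9 tested genes, with 2 falls and 1 rise in ada1 deletion cells (median -0.07) and 1 of each in gcn5 deletion cells (median 0.14). PCL5, the cyclin that directs Gcn4 to degradation, gave 175 in ada1 deletion cells and 2425 in gcn5 deletion cells, against 827 and 943 in wild type. Like PCL1 it lay below wild type in one strain and above it in the other (-2.34 ± 0.28 and 1.46 ± 0.28, adjusted p = 1.72e-14 and 2.04e-05, limma). PHO81, the inhibitor of Pho85 with Pho80, fell in both, at 424 and 636 against 1313 and 1598, and CLG1, another Pho85 cyclin gene, rose in ada1 deletion cells by 0.68 ± 0.22.

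Of the 20 tested SBF targets, among them genes of budding and the cell wall, 5 fell in ada1 deletion cells (EXG1, MNN1, SVS1, CSI2 and MSB2, median -0.41). In gcn5 deletion cells 3 fell (SVS1, HO and MSB2, median -0.34), and 0 rose in either strain. SVS1 gave 664 in ada1 and 809 in gcn5 deletion cells, against 2772 and 2549 in wild type. Over the alternatives 4 to 7 fell in ada1 deletion cells and 1 to 7 in gcn5 deletion cells, the 7 after quantile normalization and median scaling in each strain, and the 1 with a single variance prior. Of the 26 tested MBF targets, among them genes of DNA synthesis, 3 fell in ada1 deletion cells (median 0.01). In gcn5 deletion cells 0 were called (limma, 3 at an unadjusted p under 0.05, median 0.17). The S-phase cyclin gene CLB6 gave 60.3 in ada1 deletion cells against 234 and 588 in wild type, which makes it at least 2.24-fold lower. RNR1, the large subunit of ribonucleotide reductase, gave 854 against 2717 and 2367 (-1.57 ± 0.22), and POL30, the sliding clamp PCNA, had -0.71 ± 0.25, a call made in 3 of 7 settings (the deposited signals, quantile normalization and the 40th-percentile filter).

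Of 7 genes with an early cell cycle box, which share the M/G1 timing of SWI4 and CLN3, MCM7 (-1.26 ± 0.36) and CDC6 (at least 1.88-fold) fell in ada1 deletion cells, with a list median of -0.23. In the gcn5 deletion strain 0 of the 7 were called (limma), with 0 at an unadjusted p under 0.05 and a median of 0.25. Of 7 genes expressed under Swi5, as PCL9 is, 5 fell in ada1 deletion cells (NIS1, RME1, EGT2, ASH1 and CDC6, median -1.39) and 2 in gcn5 deletion cells (NIS1 and HO, median 0.00229). RME1, ASH1, CDC6, SIC1 and HO each stand in 2 of the lists. EGT2, a gene of cell separation, gave 1249 in ada1 deletion cells and 3277 in gcn5 deletion cells, against 3246 and 3297 in wild type. With low signals raised to the background level, MCM1, CSI2, CLB6, POL30, CLG1, MCM7 and CDC6 in ada1 and HO, NIS1 and PHO81 in gcn5 deletion cells lost their calls. With a single variance prior CLG1 and POL30 in ada1 deletion cells, HO in gcn5 deletion cells and both calls of MSB2 were lost. CLG1 and POL30 were also lost with no filter, POL30 with median scaling, and HO with the filter at the 40th percentile. The highest adjusted p of these calls over the alternatives reached 0.406 for CLG1 (limma).

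**Figure D4:**
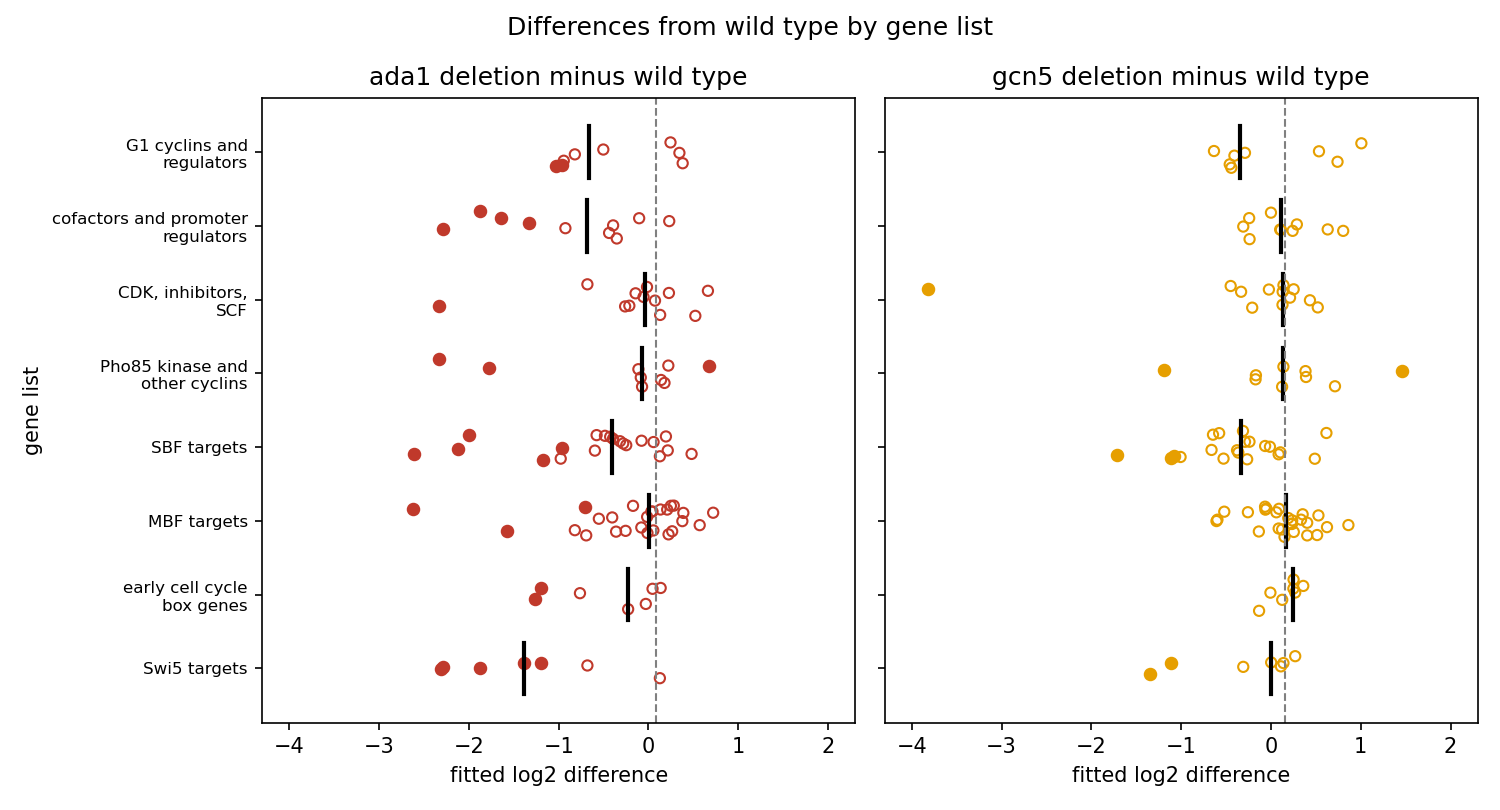
Fitted log2 differences from wild type of the tested genes in each list, for the ada1 deletion strain (left) and the gcn5 deletion strain (right); each point is a gene, filled where its adjusted p was under 0.05 (limma), black bars are list medians and dashed lines the medians of all tested genes (0.08 and 0.15). The medians of the 8 tested G1 cyclin and regulator genes lie at -0.66 and -0.35, and that of the Swi5 targets at -1.39 in ada1 deletion cells.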

How the data were processed

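RNA of 4 samples was labelled with biotin and hybridised to Affymetrix arrays, per the labels. The authors deposited 1 linear intensity for each probe set, made with MAS5 per the submitters' processing notes. Its version, scaling target and detection calls: not given in the sources used here. Probe sets were named from the platform annotation and matched by gene identifier to the RefSeq table of assembly R64 (5498 of 5716 probe sets, all those with 1 symbol), used for names only. Where a gene had several probe sets (47 genes), that of the highest mean log2 signal was used.

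Log2 signals of the 4541 genes and unnamed probe sets whose mean reached the 20th percentile over all probe sets were fitted with limma 3.58.1 in R 4.3.3 (lmFit, eBayes with a trend, 3 groups, 1 residual degree of freedom). The lone deletion arrays were assumed to vary as the wild-type pair does. The prior degrees of freedom were infinite, so each gene took the spread of the trend, and genes of unusual spread have p-values that are too small. P-values are two-sided and adjusted by the Benjamini-Hochberg method over all tested genes, and a call is an adjusted p under 0.05. Where every array of a group lay under the background level, the fold is a lower bound ("at least"), the brighter group's mean over that level. Precision is limited by the number of arrays.

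The members, the 7 pathway lists and the alternatives were chosen with earlier results of these data known. All members are named, with up to 3 genes of the largest difference per list and strain, the list genes called and the 3 nearest patterns of each called member.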

Additional observations from a re-analysis of the deposited data

Results flagged for a closer look

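Among the 94 tested genes of the members and the 7 pathway lists, 15 were called in the direct test of the ada1 deletion strain against the gcn5 deletion strain (limma, adjusted p under 0.05), 13 of them lower and 2 higher in ada1 deletion cells. Over all tested genes 4.25 percent were called lower and 2 percent higher. Among the members this was PCL1, with a log2 difference of -1.51 for ada1 minus gcn5 deletion, which was -0.75 within the array pairs of like signal range. Among the promoter-acting and Swi5-controlled genes, the differences were -2.39 for RME1, -1.56 for ASH1, -1.56 for YHP1, -1.57 for MCM1, -1.40 for NRM1 and -1.39 for EGT2. MCM7, a gene with an early cell cycle box, differed by -1.26. Among the SBF and MBF targets the differences were -2.37 for EXG1, -0.97 for RNR1 and 1.25 for HO, and PCL5 differed by -3.79. For CLB6 and CDC6 the ada1 deletion signals lay under the background level, so the fitted -2.01 and -1.46 stand for at least 1.47-fold and at least 2.27-fold lower. The count also holds FAR1 with a fitted 1.49, although both of its deletion signals lay under the background level and have no order. Within the array pairs the value for MCM1 was -1.05, that for HO 1.85 and that for CLB6 -0.69. For CLB6 the wild-type arrays themselves differed by -1.33, replicate 1 minus replicate 2, and the part of the array pair in its difference was not tested. All 15 were also called after quantile normalization (limma), a setting that called more genes over the whole table. With low signals raised to the background level PCL1, FAR1, HO, MCM7 and CDC6 were among those that lost the call. With a single variance prior HO was lost, as was either MCM7 or CDC6.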

How the results depend on the processing

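Members called lower in the ada1 deletion strain numbered 2, but 4 after quantile normalization and also after median scaling, and 0 with the filter at the 40th percentile (which kept 4 of the 10 members), with a single variance prior and with low signals raised to the background level. In the gcn5 deletion strain the count of 0 in either direction became 1 higher and 2 lower after scaling to a common median. Between the strains 1 member was called lower, against 2 with no filter, where WHI5 joined PCL1 (adjusted p = 0.0331, limma, from signals under the background level on every array), and 0 with the stricter filter, which left PCL1 out, and with raised signals; 1 was called higher (CLN3) after scaling to a common median. Members lower by 2-fold or more in the ada1 deletion strain numbered 1, and 0 to 2 when either wild-type array was left out. In the gcn5 deletion strain 1 was higher by 2-fold or more (0 to 2) and 0 were lower (0 to 1). No called difference changed sign under any alternative. Among uncalled ones CLN3 in the ada1 deletion strain turned to -0.20 against replicate 1 alone, SWI6 between the strains to 0.00252 after quantile normalization, and within the array pairs CLN3 (-0.01), SWI6 (0.30) and MBP1 (0.19) turned between the strains. Leaving out a wild-type array ends the test, since no residual degree of freedom remains. Some calls changed although the fitted difference did not. CLN1 lost its ada1 call with a single variance prior at an SE of 0.354, against 0.355 in the main fit. PCL1 lost its call between the strains with raised signals at an SE of 0.406, against 0.462 in the main fit. For CLN1 the prior degrees of freedom were infinite in both fits, so its unadjusted p did not rise and the call ended at the adjustment over all genes. For PCL1 they were infinite in the main fit and 8.44 with raised signals. The spread, the prior degrees of freedom and the adjustment can each change a call, and their parts were not tested for PCL1.

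Over all genes, 124 rose and 259 fell in the ada1 deletion strain, against 298 and 394 after quantile normalization and 363 and 377 after scaling to a common median. In the gcn5 deletion strain 96 rose and 115 fell, against 143 and 247 and against 214 and 276. Raised signals left 82 and 174 for ada1, then 51 and 55 for gcn5, and a single variance prior 56 and 189, then 56 and 67. Prior degrees of freedom were 9.17 after quantile normalization and 8.44 with raised signals. Every member has 1 probe set, so that alternative was not run. No paired analysis was possible because the deletion samples carry no replicate number.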
